A study of Mus musculus with 16 samples.

Results

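The AP-1 and BATF subunits were followed as 10 genes of the deposited count table: *Fos*, *Fosb*, *Fosl1*, *Fosl2*, *Jun*, *Junb*, *Jund*, *Batf*, *Batf3* and *Maff*. They were picked by gene name, each name matched 1 row of 54532, and all 10 passed the filter on low counts in every comparison. The samples were TCF1+CD8+ T cells made in culture from naive CD8+ T cells, which had been taken from spleens of C57BL/6J mice. Over 4 days those cells had been activated repeatedly, with IL-2 and with beads carrying antibodies to CD3 and CD28, so the controls had also met both. For the experiment, cells were held for 1 h with PGE2 at 100 ng/ml or without it, and then kept for 4 h in low-dose IL-2 (85 U/ml), either alone (unstimulated) or with beads carrying the same antibodies at 1 bead per cell (stimulated). This gave 4 groups of 4 bulk RNA-seq samples, called unstimulated control, unstimulated PGE2-treated, stimulated control and stimulated PGE2-treated. The cells are a culture model, so no tumour or other tissue cell was present, and the labels do not say whether replicates came from separate animals or cultures. The p-values therefore measure the spread between these samples, which may be technical.

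AP-1 is a family of paired leucine-zipper proteins. JUN proteins pair with each other or with FOS proteins, whereas FOS proteins need a JUN partner to bind DNA. BATF proteins lack a transactivation domain, pair with JUN proteins, and in T cells bind beside IRF4 or IRF8 at composite sites. Small MAF proteins such as MAFF also lack a transactivation domain and act with NRF and BACH partners. In T cells, signals from the T cell receptor and CD28 raise FOS and JUN through the MAP kinases, and AP-1 then binds with NFAT at cytokine genes. PGE2 raises cAMP in T cells through its receptors EP2 and EP4, and cAMP acts in part on genes with a cAMP response element (TGACGTCA) near the start. The comparisons below ask how PGE2 and bead stimulation each changed the transcripts of these subunits, and whether the PGE2 effect depended on stimulation.

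Promoter sequences from RefSeq (build GRCm38.p6, the build family of the count table) were found for 9 of the 10 members, in 11 windows of 300 bases that run from 250 bases before a transcript start to 50 after it. The full element TGACGTCA, searched on both strands, lay in 1 of the 11 windows and in 1.79% of all 32851 windows of the reference. Its core TGACG, which the full element contains, lay in 6 of the 11 windows, those of *Fos*, *Fosb*, *Junb*, *Batf* and 2 of the 3 starts of *Maff*, and in 20.8% of all windows. The AP-1 site TGANTCA and the CArG box lay in none of the 11, against 7.81% and 1.63% of all windows. Only these exact patterns were searched, so related forms and sites outside the windows were not looked for. The 150 bases before the start are shown for 6 windows, 5' to 3' on the gene's strand, with TGACG or TGACGTCA (on either strand) in capitals. *Fos* and *Fosb* are shown because their levels moved together, and *Maff* for the full element. *Fosl2*, *Batf* and *Batf3* are shown as 3 of the 4 members that passed under PGE2 in the main fit, which leaves out the replicate numbers. A fit that uses those numbers called more members, as given below.
*Fos*, chr12:85473740-85473889, plus strand: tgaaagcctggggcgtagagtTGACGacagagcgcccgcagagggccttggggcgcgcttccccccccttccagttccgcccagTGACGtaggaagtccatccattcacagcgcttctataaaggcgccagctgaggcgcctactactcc
*Fosb*, chr7:19310046-19310195, minus strand: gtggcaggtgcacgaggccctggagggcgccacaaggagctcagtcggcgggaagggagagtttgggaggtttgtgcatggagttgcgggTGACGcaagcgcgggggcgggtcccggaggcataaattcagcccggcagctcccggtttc
*Fosl2*, chr5:32136322-32136471, plus strand: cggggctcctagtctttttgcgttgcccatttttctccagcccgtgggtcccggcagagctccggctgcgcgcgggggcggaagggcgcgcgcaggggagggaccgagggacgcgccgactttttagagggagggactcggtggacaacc
*Batf*, chr12:85686570-85686719, plus strand: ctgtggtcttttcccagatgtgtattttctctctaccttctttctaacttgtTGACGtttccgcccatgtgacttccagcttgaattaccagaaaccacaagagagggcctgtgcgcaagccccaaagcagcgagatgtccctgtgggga
*Batf3*, chr1:191098264-191098413, plus strand: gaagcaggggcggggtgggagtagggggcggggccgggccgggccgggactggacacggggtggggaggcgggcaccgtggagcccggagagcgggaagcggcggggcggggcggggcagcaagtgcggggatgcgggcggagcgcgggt
*Maff*, chr15:79347370-79347519, plus strand: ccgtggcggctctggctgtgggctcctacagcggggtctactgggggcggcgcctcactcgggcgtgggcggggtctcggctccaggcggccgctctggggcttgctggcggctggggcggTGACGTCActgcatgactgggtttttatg
In *Fos* the core began 129 and 66 bases before the start, in *Fosb* 60, and in *Batf* 98 bases before it. The printed windows of *Fosl2* and *Batf3* held neither form. Those RefSeq starts lie 671 bases (*Fosl2*) and 567 bases (*Batf3*) inside the gene bounds of the count table, so other transcripts of both genes begin elsewhere. *Jund*, the remaining member that passed under PGE2 in the main fit, is not shown, and its RefSeq start lies 1210 bases before those bounds. A match is a description of the letters only.

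Each sample held between 22678254 and 42950763 counts. The lowest count of any member in any sample was 25, for *Fosl1*. Levels are given as CPM, that is counts per 1000000 counts of the sample, after TMM scaling over all 16 samples. All 7 CD8+ T cell markers, *Tcf7* (TCF1) among them, were above 1 CPM on average in every group, and their sum was 2853 to 4836 CPM. They moved with the conditions. *Tcf7* fell to 0.26-fold with beads without PGE2 (edgeR adjusted p = 5.69e-08) and to 0.347-fold with it (7.69e-06), and PGE2 lowered *Cd8a* to 0.739-fold in unstimulated and 0.746-fold in stimulated cells (0.000282 and 0.00594) and *Cd8b1* to 0.79-fold and 0.841-fold (0.018 and 0.0296). The 6 myeloid markers summed to at most 0.687 CPM and the 5 erythroid markers to at most 0.821 CPM in any sample. The 5 B cell markers summed to 10.1 to 21.0 CPM in unstimulated and 4.47 to 11.7 CPM in stimulated samples, and the 4 CD4+ T cell markers to 27.4 to 40.6 and 17.996 to 27.6 CPM. The 4 NK markers, of which *Gzma* and *Eomes* are also CD8+ T cell genes, summed to 14.05 to 30.9 CPM without beads and to 48.4 to 182 CPM with them, and 1 of them had no count in any sample. The part of these markers and cells in the results was not tested. In bulk RNA, fewer cells that express a gene and less RNA per cell cannot be told apart.

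Stimulation changed more of the members than PGE2 did. Without PGE2, beads raised all 10 members, and the replicates of the stimulated and unstimulated groups did not overlap for any of them. Of all 14205 genes tested there, 31.7% rose, 34.8% fell and 61.6% had groups that did not overlap. With PGE2, beads raised 8 members and lowered 1, *Fosl2*, and 8 members had groups that did not overlap, against 32.5% of all genes higher, 31.7% lower and 60.2% without overlap. At the 2-fold threshold used to call differentially expressed genes (DEGs), 7 members were DEGs of stimulation without PGE2 and 5 with it, against 23.2% and 22.1% of all genes. The median log2 fold change of the members was 1.45 without PGE2 and 1.23 with it, against medians over all genes of −0.0315 and 0.00222.

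In the main fit, which leaves out the replicate numbers, PGE2 changed fewer members, and not all in the same direction. In unstimulated cells 1 member rose (*Fosl2*) and 1 fell (*Batf3*), both DEGs, and 1 had groups that did not overlap, while of all 14505 genes 12.9% rose, 15.5% fell, 3.38% were DEGs and 28.9% had groups without overlap. In stimulated cells 1 rose (*Fosl2*) and 3 fell (*Jund*, *Batf* and *Batf3*), none of them a DEG in edgeR or in any alternative run, and the groups did not overlap for these 4. The background there was 6.04% higher, 3.8% lower, 1.75% DEGs and 17.9% without overlap among 13922 genes. Samples with the same replicate number deviated from their group means together in both PGE2 comparisons. Samples of other numbers also correlated, at most at 0.177 in unstimulated and 0.438 in stimulated cells. The fit with the replicate number as a block is also given. That fit called 8 members in unstimulated cells, 6 higher and 2 lower, against 23.6% and 24.2% of all genes. In stimulated cells it called 6, of which 2 were higher and 4 lower, against 19.1% and 20.7% of all genes. The median log2 fold change of the members under PGE2 was 0.32 in unstimulated and −0.14 in stimulated cells, against −0.00102 and −0.00611 over all genes.

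**Figure D1:**
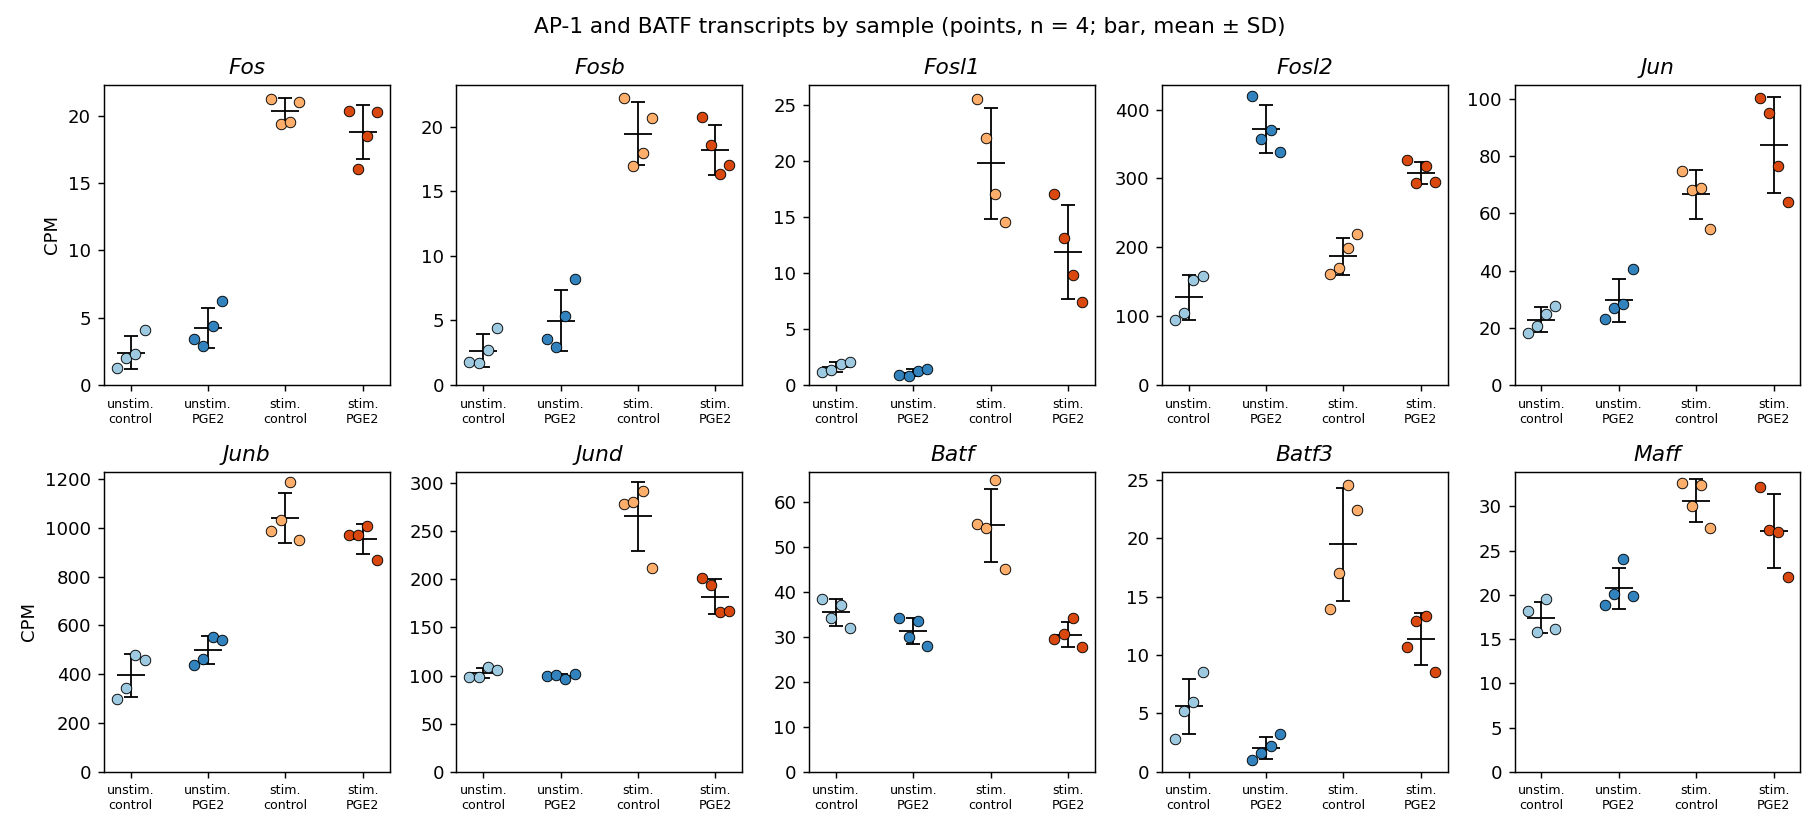
Level of each member in each sample, in CPM on a linear axis that starts at 0, by group (unstim., unstimulated; stim., stimulated). Points are the 4 replicates in order of their number, and the bar with whiskers is the mean ± SD; *Fosl2* was highest in the unstimulated PGE2-treated samples (339 to 419), whereas the other members had their highest mean in a stimulated group.

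*Fosl2* encodes FRA2, a FOS protein with a more lasting expression than FOS itself. In edgeR without the replicate block it was the member that PGE2 raised in both states. With the block *Jun* also passed as higher in both (edgeR adjusted p = 8.99e-05 in unstimulated and 0.00137 in stimulated cells). In unstimulated cells *Fosl2* had 94.6, 104, 153 and 158 CPM in the control replicates 1 to 4, and 419, 358, 369.8 and 339 CPM in the PGE2-treated ones. In stimulated cells it had 161, 169.8, 199 and 219 CPM in the controls and 326, 293, 317 and 294 CPM after PGE2. The PGE2-treated samples were above every control sample in both states, and the unstimulated PGE2-treated samples were also above every stimulated control sample. The PGE2 rise was 2.95-fold in unstimulated cells (log2 fold change 1.56 ± 0.16 SE, n = 4 against 4, edgeR adjusted p = 3.63e-05) and 1.65-fold in stimulated cells (0.72 ± 0.10, adjusted p = 0.00253), and it was seen in 4 of 4 same-numbered pairs in each state. Beads raised *Fosl2* 1.45-fold without PGE2 (0.54 ± 0.16, adjusted p = 0.0098). In PGE2-treated cells, beads were followed by a fall of *Fosl2* to 0.838-fold (−0.25 ± 0.08, adjusted p = 0.0145), lower in 4 of 4 pairs. In the fit of all 16 samples together, however, that fall had an adjusted p of 0.0992.

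*Fos* and *Fosb* encode FOS proteins of the immediate-early response, and their strongest move was with beads. *Fos* had 1.24, 2.03, 2.28 and 4.10 CPM in the unstimulated controls and 3.44, 2.90, 4.35 and 6.26 CPM in unstimulated cells given PGE2. The stimulated samples had 21.2, 19.4, 19.5 and 21.0 CPM without PGE2 and 20.4, 16.03, 18.5 and 20.2 CPM with it. Stimulated samples were thus well above unstimulated ones, while control and PGE2-treated samples overlapped in either state. The bead response of *Fos* was 8.15-fold without PGE2 (log2 3.03 ± 0.24 SE, edgeR adjusted p = 3.13e-07) and 4.44-fold with it (2.15 ± 0.21, adjusted p = 9.18e-06). PGE2 against control gave 0.82 ± 0.33 in unstimulated cells (adjusted p = 0.091, or 0.000229 with the replicate block), higher in 4 of 4 pairs, and −0.11 ± 0.09 in stimulated cells (adjusted p = 0.478).

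The values of *Fosb* had the same shape as those of *Fos*. They were 1.81, 1.73, 2.70 and 4.43 CPM in unstimulated controls, and 3.55, 2.93, 5.32 and 8.17 CPM after PGE2. With beads they were 22.2, 17.0, 17.97 and 20.7 CPM without PGE2 and 20.7, 18.5, 16.3 and 17.0 CPM with it. Again the stimulated samples stood apart and the PGE2-treated ones overlapped their controls. Beads raised *Fosb* 7.10-fold without PGE2 and 3.64-fold with it (edgeR adjusted p = 5.25e-07 and 0.000131). PGE2 gave a log2 difference of 0.92 ± 0.36 SE in unstimulated cells (adjusted p = 0.0829, or 1.12e-05 with the replicate block), again higher in 4 of 4 pairs, and −0.09 ± 0.11 in stimulated cells (adjusted p = 0.605). Without replicate 4 of the unstimulated controls, the highest control sample of both genes, the PGE2 differences were 1.20 for *Fos* and 1.28 for *Fosb* and both were called as DEGs (adjusted p = 0.0151 and 0.0232). *Fosb* was also called without replicate 2 of the unstimulated PGE2-treated samples (adjusted p = 0.0467). Without a block, both genes passed as well in DESeq2 (adjusted p = 0.0391 and 0.0285), in edgeR with no filter (0.0384 and 0.0259) and in the fit of all 16 samples (0.0361 and 0.0353).

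*Fosl1*, which encodes FRA1, was the lowest or next to lowest member per length before beads and had the steepest bead response of the 10. It had 1.15, 1.30, 1.86 and 2.05 CPM in unstimulated controls and 0.879, 0.845, 1.27 and 1.45 CPM in unstimulated PGE2-treated samples. After beads it had 25.5, 22.0, 17.0 and 14.5 CPM without PGE2 and 17.0, 13.1, 9.78 and 7.43 CPM with it. Replicate 1 was the highest and replicate 4 the lowest in both stimulated groups, and control and PGE2-treated values overlapped between replicates although the PGE2-treated sample was the lower in 4 of 4 pairs. Beads raised *Fosl1* 12.1-fold without PGE2 (log2 3.60 ± 0.23 SE, edgeR adjusted p = 5.73e-08) and 10.7-fold with it (3.42 ± 0.30, adjusted p = 4.05e-06). PGE2 in stimulated cells gave −0.73 ± 0.25, which did not pass in edgeR on the 8 samples (adjusted p = 0.0942) and passed with the block (4.80e-05). Without a block it passed in DESeq2 (0.0315), with no filter (0.0480) and in the fit of all 16 samples (0.0420). It also passed without replicate 1 of the stimulated PGE2-treated samples (−0.96, adjusted p = 0.026). In unstimulated cells the difference was −0.50 ± 0.27 (adjusted p = 0.197, or 0.0505 with the block). In the GENCODE M21 annotation 57.2% of the exon bases of *Fosl1* are shared with *Ccdc85b* on the opposite strand, and the strand setting of the counting is not given in the sources used here, so part of these counts may be uncertain.

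**Figure D2:**
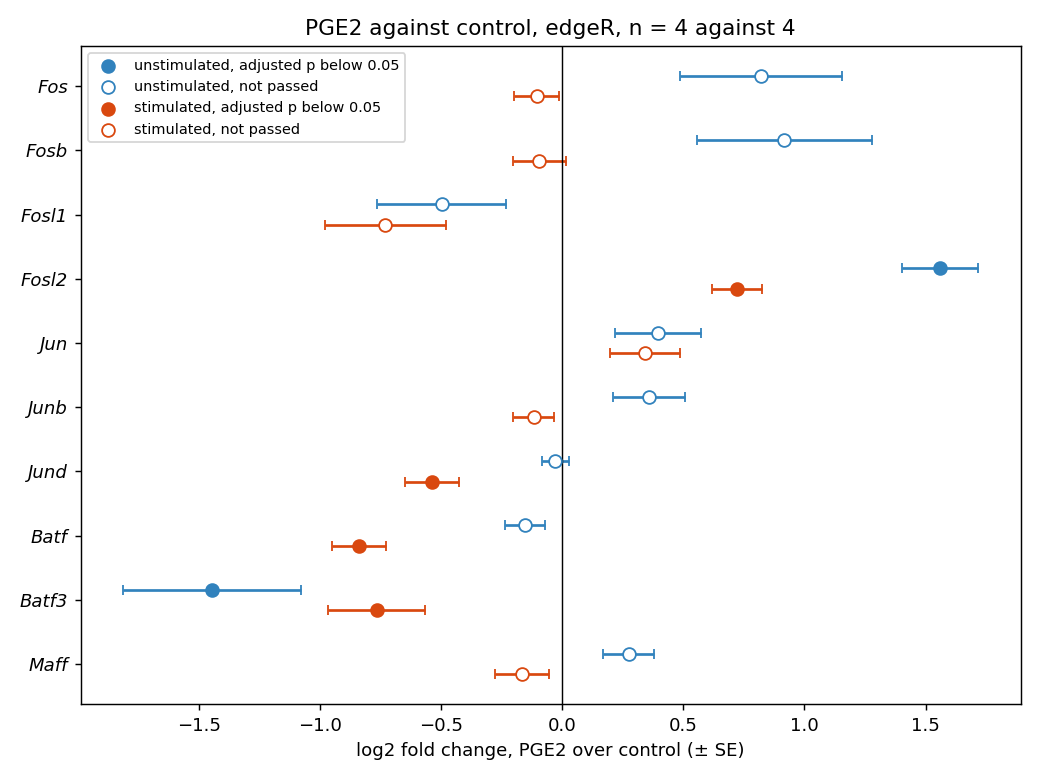
Log2 fold change of each member for PGE2-treated over control samples, in unstimulated (blue) and stimulated (orange) cells, with bars of ± 1 SE from edgeR (4 against 4 samples). Filled points had an adjusted p below 0.05 in the fit without a replicate block; *Fosl2* lies to the right of 0 in both states (1.56 and 0.72) and *Batf3* to the left in both (−1.44 and −0.77).

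*Junb*, the most abundant member per length in every group, encodes a JUN protein that partners BATF in T cells. Its unstimulated control samples had 300.1, 344, 480.0 and 457 CPM and the unstimulated PGE2-treated ones 437, 463, 554 and 542 CPM. With beads the values were 989, 1034, 1186 and 951 CPM in controls and 971, 972, 1007 and 867 CPM after PGE2. All stimulated samples were above all unstimulated samples, and the PGE2-treated and control ranges overlapped in each state. The bead response was 2.60-fold without PGE2 (log2 1.38 ± 0.14 SE, edgeR adjusted p = 2.90e-06) and 1.93-fold with it (0.95 ± 0.10, adjusted p = 1.36e-05). PGE2 gave 0.36 ± 0.15 in unstimulated cells (adjusted p = 0.0985, or 4.73e-06 with the replicate block) and −0.12 ± 0.09 in stimulated cells (adjusted p = 0.392). Without replicate 3 of the unstimulated controls the first of these also passed (0.47, adjusted p = 0.0432), as it did in DESeq2 (0.0439) and with no filter (0.0373).

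*Jund*, a JUN protein that is usually present in resting cells and little induced, did respond to beads here. It had 98.1, 98.0, 109 and 106 CPM in unstimulated controls and 99.3, 101, 95.9 and 101 CPM in unstimulated PGE2-treated samples. Stimulated controls had 278, 280.2, 291 and 212 CPM, and stimulated PGE2-treated samples 201, 194, 166 and 167 CPM. Unstimulated samples thus lay close together with or without PGE2, and the stimulated PGE2-treated samples were below every stimulated control. Beads raised *Jund* 2.56-fold without PGE2 (log2 1.36 ± 0.10 SE, edgeR adjusted p = 2.16e-07) and 1.85-fold with it (0.89 ± 0.08, adjusted p = 7.35e-06). PGE2 lowered it to 0.689-fold in stimulated cells (−0.54 ± 0.11, adjusted p = 0.0149), lower in 4 of 4 pairs. That call was lost without stimulated control replicate 1 or 2 or stimulated PGE2-treated replicate 3 (adjusted p = 0.0516, 0.0559 and 0.056), with differences of −0.50, −0.51 and −0.49, and in limma with no filter (adjusted p = 0.0809). In unstimulated cells the difference was −0.03 ± 0.06 (adjusted p = 0.763), with 2 of 4 pairs higher. The exons of *Jund* share 52.6% of their bases with an antisense gene that had no count in any sample. As for *Fosl1*, the strand setting of the counting is not given, so the counts of *Jund* may also be uncertain.

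*Jun* encodes c-JUN, the founding JUN protein and a target of JNK. It had 18.2, 20.8, 24.9 and 27.7 CPM in unstimulated controls and 22.9, 26.9, 28.3 and 40.5 CPM in unstimulated cells given PGE2. After beads it had 74.7, 68.3, 69.0 and 54.5 CPM in controls and 100.4, 95.0, 76.7 and 64.1 CPM with PGE2. The PGE2-treated sample was the higher in 4 of 4 pairs in each state, yet the group ranges overlapped. Beads raised *Jun* 2.88-fold without PGE2 (log2 1.53 ± 0.14 SE, edgeR adjusted p = 8.58e-07) and 2.86-fold with it (1.52 ± 0.19, adjusted p = 5.24e-05). The PGE2 difference was 0.39 ± 0.18 in unstimulated cells (adjusted p = 0.125) and 0.34 ± 0.14 in stimulated cells (adjusted p = 0.159), and with the replicate block both passed (adjusted p = 8.99e-05 and 0.00137). Without replicate 1 of the unstimulated PGE2-treated samples the first passed as well (0.51, adjusted p = 0.0376).

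*Batf* encodes the BATF protein that effector CD8+ T cells need, and its bead response was seen in the cells that had no PGE2. It had 38.5, 34.3, 37.3 and 32.0 CPM in unstimulated controls and 34.2, 30.0, 33.5 and 28.1 CPM in unstimulated PGE2-treated samples. The stimulated controls had 55.2, 54.2, 65.0 and 45.1 CPM and the stimulated PGE2-treated samples 29.5, 30.7, 34.2 and 27.7 CPM. The stimulated controls were above all other samples, and the stimulated PGE2-treated samples overlapped both unstimulated groups. Beads raised *Batf* 1.53-fold without PGE2 (log2 0.62 ± 0.11 SE, edgeR adjusted p = 0.000236). With PGE2 the bead difference was −0.03 ± 0.09 (adjusted p = 0.823), with 2 of 4 pairs higher. PGE2 lowered *Batf* to 0.559-fold in stimulated cells (−0.84 ± 0.11, adjusted p = 0.00176), lower in 4 of 4 pairs, and this call held in all 8 fits that left out 1 replicate (adjusted p from 0.00112 to 0.00918). In unstimulated cells the difference was −0.15 ± 0.08 (adjusted p = 0.19), the PGE2-treated sample was lower in 4 of 4 pairs, and the replicate block gave an adjusted p of 0.0153.

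*Batf3*, best known for its role in the cross-presenting dendritic cells and also expressed by activated T cells, was lower after PGE2 in both states. Its values were 2.78, 5.16, 5.97 and 8.52 CPM in unstimulated controls and 1.02, 1.60, 2.18 and 3.26 CPM after PGE2. With beads they were 13.9, 17.0, 24.5 and 22.4 CPM in controls and 10.7, 12.9, 13.4 and 8.50 CPM with PGE2. The unstimulated groups overlapped in 1 sample each, control replicate 1 and PGE2-treated replicate 4, while the stimulated groups did not overlap. PGE2 lowered *Batf3* to 0.367-fold in unstimulated cells (log2 −1.44 ± 0.37 SE, edgeR adjusted p = 0.0124) and to 0.588-fold in stimulated cells (−0.77 ± 0.20, adjusted p = 0.0398), lower in 4 of 4 pairs each time. The call in stimulated cells was lost in 6 of 8 fits that left out 1 replicate, all but those without stimulated control replicate 1 or stimulated PGE2-treated replicate 1, with an adjusted p of at most 0.102 and differences from −0.85 to −0.63 in those 6. It was also lost in the fit of all 16 samples (adjusted p = 0.0793) and in limma with no filter (0.111), and the call in unstimulated cells was lost in limma with no filter (0.0724). Beads raised *Batf3* 3.37-fold without PGE2 and 5.60-fold with it (adjusted p = 6.81e-05 and 3.29e-05).

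*Maff*, the small MAF protein of the set, moved least with beads among the members apart from *Fosl2* and *Batf*. It had 18.2, 15.8, 19.5 and 16.1 CPM in unstimulated controls and 18.9, 20.1, 24.1 and 19.9 CPM in unstimulated PGE2-treated samples. Stimulated controls had 32.7, 30.0, 32.4 and 27.5 CPM and stimulated PGE2-treated samples 32.2, 27.3, 27.1 and 22.0 CPM. Stimulated controls were above all unstimulated samples, but with PGE2 the stimulated range reached down into the unstimulated range. Beads raised *Maff* 1.74-fold without PGE2 (log2 0.80 ± 0.10 SE, edgeR adjusted p = 1.30e-05) and 1.32-fold with it (0.41 ± 0.13, adjusted p = 0.0192). The second call was lost without unstimulated PGE2-treated replicate 1 or 2 or stimulated PGE2-treated replicate 1 (adjusted p = 0.062, 0.0506 and 0.0516), with upper-quartile scaling (0.0749) and in limma with no filter (0.0697). PGE2 gave 0.27 ± 0.11 in unstimulated cells (adjusted p = 0.0757, or 0.00261 with the replicate block) and −0.17 ± 0.11 in stimulated cells (adjusted p = 0.357). The first of these passed without unstimulated control replicate 3 or unstimulated PGE2-treated replicate 1 (0.34 and 0.33, adjusted p = 0.0471 and 0.039), and in DESeq2 (0.0426).

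**Figure D3:**
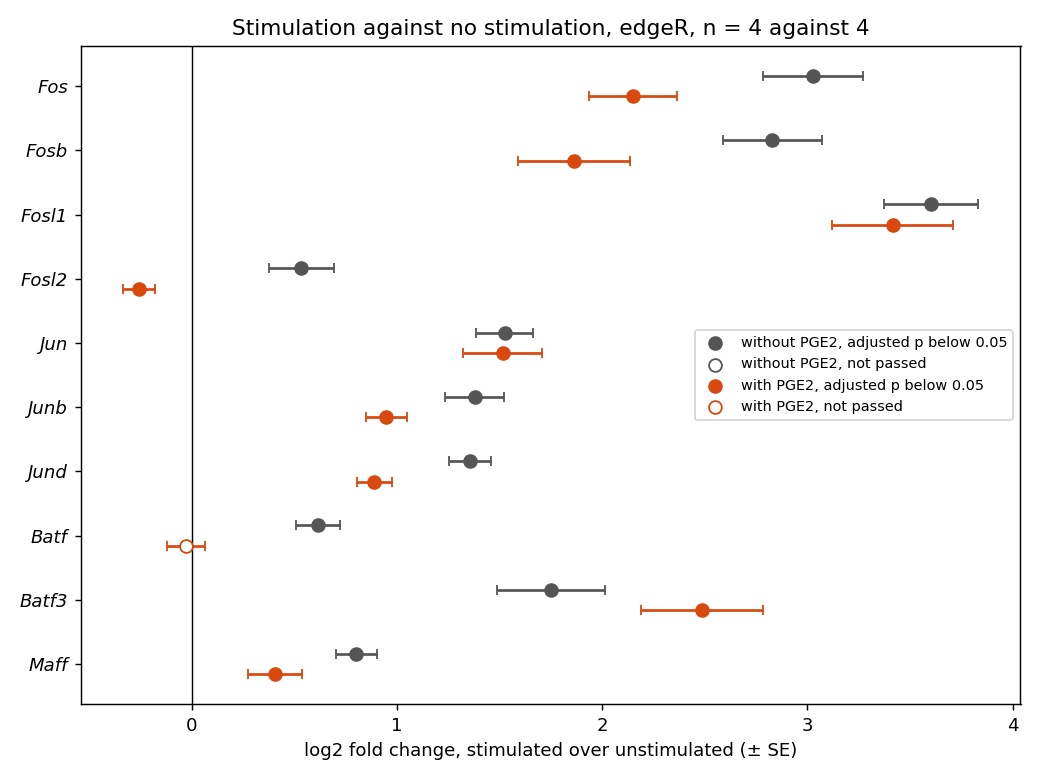
Log2 fold change of each member for stimulated over unstimulated samples, without PGE2 (grey) and with PGE2 (orange), with bars of ± 1 SE from edgeR (4 against 4 samples). Filled points had an adjusted p below 0.05; *Fosl2* lies at 0.54 without PGE2 and at −0.25 with it, *Batf* at 0.62 and −0.03, and *Jun* at 1.53 and 1.52.

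Whether the PGE2 effect differed between stimulated and unstimulated cells was tested by the interaction term over all 16 samples. It passed for 1 member, *Batf*, which was lower (−0.67 ± 0.15 SE on the log2 scale, edgeR adjusted p = 0.0415, below the 2-fold threshold), and for none in the other direction. Of all 15096 genes 0.517% were higher, 0.232% were lower and 0.232% also differed by 2-fold or more. The *Batf* call was lost in 12 of 16 fits that left out 1 replicate, with an adjusted p between 0.0154 and 0.113 and values from −0.76 to −0.58, the exceptions being the fits without unstimulated PGE2-treated replicate 4, stimulated control replicate 4 or stimulated PGE2-treated replicate 3 or 4. It was also lost in all 3 limma settings (adjusted p from 0.0627 to 0.141). The next members were *Fosl2* (−0.83 ± 0.20, adjusted p = 0.0677) and *Jund* (−0.50 ± 0.13, adjusted p = 0.0931). *Fosl2* passed without unstimulated control replicate 3 or 4 (adjusted p = 0.0431 and 0.0298) and *Jund* without stimulated control replicate 4 (0.0142). With the replicate block all 3 passed (adjusted p = 0.0014 for *Batf*, 0.0219 for *Fosl2* and 0.0417 for *Jund*), DESeq2 also called *Fosl2* (0.0044) and *Jund* (0.0355), and *Fosl2* passed with no filter (0.0091). This block takes the numbers as shared by all 4 groups. Between the unstimulated and stimulated PGE2-treated samples, same-number correlations fell to 0.0432, so the numbers did not pair those samples. *Fos* and *Fosb* had larger but less certain values (−0.91 ± 0.35 and −0.99 ± 0.39, adjusted p = 0.369 and 0.396). For *Jun* the value was −0.04 ± 0.24 (adjusted p = 0.997). At an unadjusted p below 0.05 there were 7 members, *Fos*, *Fosb*, *Fosl2*, *Junb*, *Jund*, *Batf* and *Maff*, all with a negative value. The share of all genes at that unadjusted threshold is not given here, so this count has no background to be read against.

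To compare members with each other, the deposited FPKM, which are per length, were used. In these places, and in the sums, shares and ratios below, *Fosl1* and *Jund* carry the limit from shared exon bases given above. In every group *Junb* was first (mean 163, 209, 430 and 394 FPKM in unstimulated control, unstimulated PGE2-treated, stimulated control and stimulated PGE2-treated samples) and *Jund* second (58.5, 57.3, 151 and 104 FPKM), with ranges that did not overlap. The third place differed. *Batf* held it in the unstimulated and stimulated controls (24.0 and 37.1 FPKM), and *Fosl2* held it in both PGE2-treated groups (37.0 and 30.2 FPKM), in the stimulated group with a range that overlapped that of *Jun* (25.1 FPKM), which in turn overlapped that of *Batf* (20.6 FPKM). *Fosb* was last in 3 groups (0.406, 2.96 and 2.76 FPKM) and *Fosl1* in the unstimulated PGE2-treated group (0.626 FPKM), where its range overlapped that of *Fosb* (0.769 FPKM). In the unstimulated controls the ranges of *Jun* and *Maff*, and those of *Fos*, *Fosl1* and *Fosb*, overlapped their neighbours. In the stimulated controls the same held for *Jun* with *Fosl2*, and for the run *Batf3*, *Maff*, *Fosl1* and *Fos*.

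The FOS genes were made up of different transcripts in the 4 groups. In unstimulated controls the 4 FOS genes summed to 14.8 ± 3.95 FPKM (SD, n = 4), of which *Fosl2* made up 85.0% ± 2.29. In unstimulated PGE2-treated cells the sum was 40.1 ± 3.02 FPKM, with 92.1% ± 3.08 from *Fosl2*. The stimulated controls reached nearly the same sum, 40.6 ± 1.71 FPKM, but there *Fosl2* was 45.4% ± 6.59, *Fosl1* 27.1% ± 6.55, *Fos* 20.2% ± 0.349 and *Fosb* 7.29% ± 0.675. With PGE2 and beads the sum was 47.2 ± 4.46 FPKM, and the share of *Fosl2* was 64.2% ± 2.86 and that of *Fosl1* 13.8% ± 3.91. In stimulated cells the share of *Fosl2* ran from 37.7% to 52.2% in controls and from 60.6% to 66.9% with PGE2, so these ranges did not overlap. These shares restate the gene values above on another scale and were given no test.

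**Figure D4:**
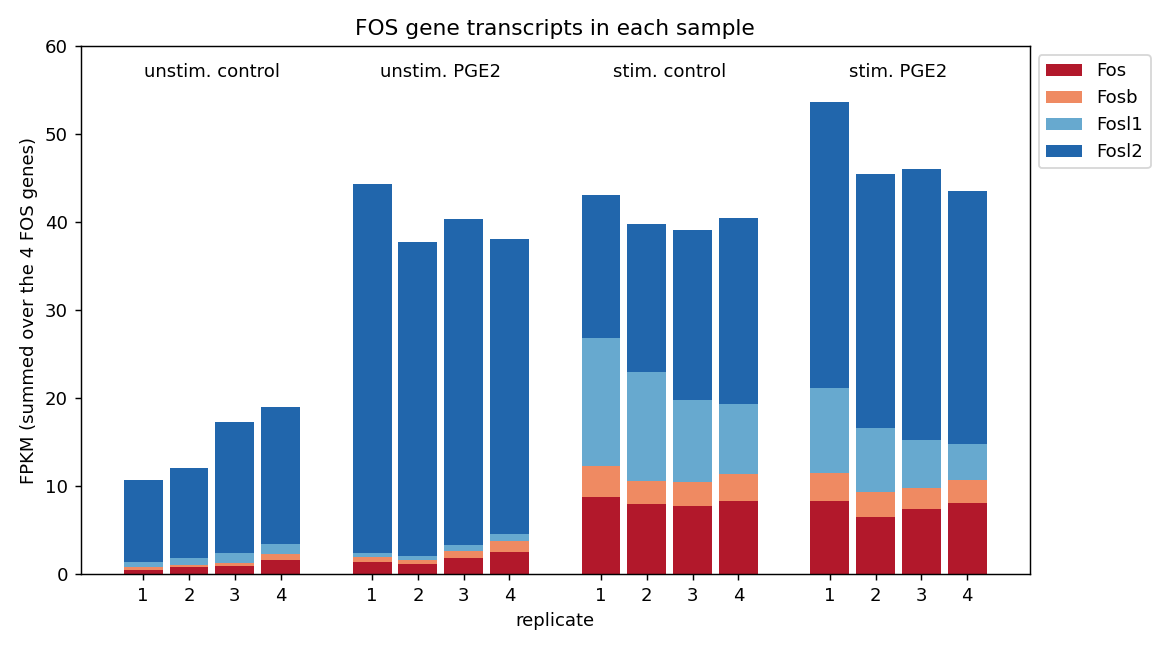
FPKM of *Fos*, *Fosb*, *Fosl1* and *Fosl2* stacked for each of the 16 samples, by group and replicate number (axis from 0). The totals of the unstimulated PGE2-treated samples (37.7 to 44.3) and of the stimulated controls (39.1 to 43.01) overlap, but *Fosl2* makes up nearly all of the first and between 37.7% and 52.2% of the second.

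The JUN genes outweighed the FOS genes in every sample. The summed FPKM of *Jun*, *Junb* and *Jund* was 15.8 ± 1.71 times that of the FOS genes in unstimulated controls and 6.91 ± 0.944 times in unstimulated PGE2-treated samples. In stimulated samples the ratio was 14.8 ± 1.82 without PGE2 and 11.1 ± 0.700 with it. The ranges of PGE2-treated and control samples did not overlap in either state (5.59 to 7.76 against 13.5 to 17.3, and 10.3 to 11.9 against 12.8 to 17.1). The 2 BATF genes summed to 27.3 ± 1.04 and 22.8 ± 1.72 FPKM in unstimulated control and PGE2-treated samples, and to 48.7 ± 6.33 and 27.4 ± 2.97 FPKM in stimulated ones. The stimulated control range (42.9 to 57.7 FPKM) was above every other sample.

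Counted by adjusted p alone, other leucine-zipper genes that pair or compete with these subunits passed at about the rate of all genes. Of 16 listed, 11 were tested for beads without PGE2, of which 5 rose and 2 fell, against 31.7% and 34.8% of all genes. At the 2-fold threshold 6 of the 11 were DEGs, against 23.2% of all genes. *Atf3*, a stress-induced partner of JUN proteins, rose most (log2 3.56, edgeR adjusted p = 1.14e-06), followed by the small MAF gene *Mafk* (1.87), and *Jdp2*, a repressor that pairs with JUN proteins, fell most (−2.24, adjusted p = 1.93e-05). Under PGE2 in unstimulated cells 3 of 13 rose and 1 fell, against 12.9% and 15.5% of all genes, and 2 were DEGs, against 3.38%. *Jdp2* rose from 14.2 to 19.7 CPM in controls to 30.1 to 38.6 CPM (1.00, adjusted p = 0.000229), *Mafa* rose from a low level (1.70, adjusted p = 0.00258), and *Mafk* fell (−0.38, adjusted p = 0.00532). In stimulated cells 1 of 12 rose under PGE2 and 0 were DEGs, against 6.04% and 1.75% of all genes. It was *Bach2*, a repressor that competes with AP-1 in T cells (0.56, adjusted p = 0.00134). *Bach2* also passed in unstimulated cells (0.58, adjusted p = 0.00013). Its levels were 135 to 138 CPM and 179.7 to 232 CPM in unstimulated control and PGE2-treated samples, and 128 to 146 CPM and 189 to 223 CPM in stimulated ones, so the groups did not overlap in either state.

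Genes of the pathway that leads to AP-1 had small differences under PGE2. Of 22 kinases and factors, PGE2 in stimulated cells raised 1 (*Map3k1*, 0.41, edgeR adjusted p = 0.0443) and lowered 1 (*Elk3*, a ternary complex factor of the ETS family, −0.48, adjusted p = 0.00443), against 6.04% and 3.8% of all genes. In unstimulated cells 8 rose, led by the kinase genes *Map2k6* (0.59) and *Braf* (0.40), and 4 fell, among them *Rasgrp1* (−0.37), which acts below the T cell receptor, against 12.9% and 15.5% of all genes. None of these was a DEG. Beads without PGE2 raised 6 and lowered 11 of the 22, with *Map2k3* (1.99) and *Map2k6* (−2.34), both kinases of the p38 pathway, at the ends, and 31.7% and 34.8% of all genes did so. The median log2 fold change of the 22 was −0.02, 0.07 and −0.17 in these 3 comparisons.

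Among 8 factors that bind DNA beside AP-1 or BATF, the IRF partners of BATF rose most with beads, where 31.7% of all genes rose and 34.8% fell. *Irf8* rose by 3.68 and *Irf4* by 3.45 on the log2 scale without PGE2 (edgeR adjusted p = 1e-07 and 1.54e-07), *Nfatc1* rose too, and the other 5 fell, *Nfatc3* (−1.18) and *Ets1* (−1.05) most. PGE2 in stimulated cells lowered *Nfatc1* (−0.55, adjusted p = 0.0125) and *Nfatc2* (−0.49, adjusted p = 0.00849) and raised *Ets1* (0.33, adjusted p = 0.0452), against 3.8% of all genes lower and 6.04% higher. *Irf4* had 1103 to 1272 CPM in stimulated controls and 949 to 1545 CPM in stimulated PGE2-treated samples, ranges that overlapped. None of the 8 passed in edgeR under PGE2 in unstimulated cells, where 2 had an unadjusted p below 0.05. The share of all genes at that unadjusted threshold is not given here.

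Of 14 T cell genes known as AP-1 targets, 12 were tested for beads without PGE2 and 11 rose, with a median log2 fold change of 3.39, against 31.7% and a median of −0.0315 over all genes. *Ifng* (6.54) and *Il2* (5.95) rose most (edgeR adjusted p = 7.08e-07 and 3.12e-07). PGE2 in stimulated cells lowered 4 of 12 and raised 2, all of them DEGs, with a median of −0.86. Of all genes 3.8% fell, 6.04% rose and 1.75% were DEGs there, with a median of −0.00611. This list, like the other gene lists, was chosen with earlier results of these data known, so its distance from the background is a description only. *Il13* (−2.16, adjusted p = 0.00151) and *Il2* (−1.95, adjusted p = 0.0305), both cytokine genes, fell most. *Plaur*, the urokinase receptor gene (1.59, adjusted p = 0.000296), and *Fasl*, the death ligand gene (1.49, adjusted p = 0.00191), rose. In unstimulated cells 5 of 10 fell and 2 rose under PGE2 (15.5% and 12.9% of all genes), again *Fasl* (1.88) and *Plaur* (1.56), with adjusted p of 5.31e-05 and 3.87e-05. *Plaur* had 9.22 to 15.5 CPM and 34.3 to 38.9 CPM in unstimulated control and PGE2-treated samples and 17.0 to 21.2 CPM and 45.8 to 72.4 CPM in stimulated ones, and those of *Fasl* were 2.82 to 5.48, 12.0 to 16.1, 6.62 to 12.7 and 20.4 to 28.0 CPM. For both genes PGE2-treated samples were above their controls in each state.

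Of 14 other immediate-early genes, beads without PGE2 raised 12 and lowered 1, with a median of 2.43, against 31.7% and 34.8% of all genes and their median of −0.0315. *Nr4a1* (3.91) and *Egr2* (3.69) rose most. PGE2 in stimulated cells lowered 4, led by *Egr2* (−1.04, edgeR adjusted p = 0.0439) and *Egr3* (−0.89, adjusted p = 0.0216), and raised none in edgeR, where 7 had an unadjusted p below 0.05, all of them lower. Of all genes 3.8% fell and 6.04% rose there at the adjusted threshold, and their share at the unadjusted threshold is not given here. In unstimulated cells it lowered 4, led by *Egr3* (−1.07, adjusted p = 0.0408) and *Egr1* (−0.99, adjusted p = 0.00103), and raised 2, *Dusp1* (0.49, adjusted p = 0.00608) and *Btg2* (0.40, adjusted p = 0.00778), against 15.5% and 12.9% of all genes. *Fos* and *Fosb*, which belong to the same class of genes, had PGE2 differences of 0.82 and 0.92 there, whose adjusted p under each fit is given above.

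The members differed in how they followed each other. Over the 16 samples the log2 levels of *Fos* and *Fosb* had a Pearson correlation of 0.990, and 0.886 after the group means were taken out. *Fosl1* and *Jun* had 0.901 within groups and *Junb* and *Batf3* 0.790. *Fosl2* was least like the others over all samples, with correlations from −0.438 (*Batf*) to 0.338 (*Fosb*), and *Fos* and *Batf* had −0.452 within groups. These values describe 16 samples that share groups, libraries and depth. Among 12243 genes that are not members, the 2 with the highest correlation were *Ppp2r3a* (0.968) and *Gng4* (0.959) for *Fosl2*, *Rbm38* (0.929) and *Tns1* (0.907) for *Batf*, and *Ergic1* (0.983) and *Pim2* (0.976) for *Batf3*. *Dusp4* was first for *Fos* (0.990), *Fosb* (0.987) and *Junb* (0.989), with *Gm13450* (0.988), *Tnfrsf9* (0.984) and *F730043M19Rik* (0.980) second. For *Fosl1* they were *Plek* and *Tnfsf14* (both 0.996), for *Jun* *Serpinb9* (0.986) and *Bcl2a1d* (0.981), for *Jund* *Dusp2* (0.986) and *Nfatc1* (0.985), and for *Maff* *Jmjd6* (0.961) and *Tmem189* (0.954).

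The members lie on 8 chromosomes in the coordinates of the count table (GRCm38). *Fos* (chromosome 12, 85473890 to 85477273, plus strand) and *Batf* (chromosome 12, 85686669 to 85709087, plus strand) share chromosome 12. *Junb* (chromosome 8, 84974484 to 84978718, minus strand) and *Jund* (chromosome 8, 70698949 to 70700616, plus strand) share chromosome 8. *Fosl2* is on chromosome 5 (32135801 to 32157842, plus strand), *Fosb* on 7 (19302696 to 19310051, minus strand), *Fosl1* on 19 (5447703 to 5455945, plus strand), *Jun* on 4 (95049034 to 95052222, minus strand), *Batf3* on 1 (191097847 to 191108945, plus strand) and *Maff* on 15 (79346621 to 79359076, plus strand). Exon bases are also shared by *Jun* with an antisense gene (7.28%) and by *Junb* with *Prdx2* on the opposite strand (7.52%), and for *Fos*, *Fosb*, *Fosl2*, *Batf*, *Batf3* and *Maff* no other gene overlapped an exon.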

How the data were processed

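RNA of 16 samples (4 groups of 4) was poly(A)-enriched and sequenced as paired-end reads by the authors, who aligned it with HISAT2 2.0.5 to GRCm38 (mm10) and counted it per gene with featureCounts 1.5.0-p3, per the labels. The deposited counts are raw, unnormalised whole numbers per gene, and the second deposited table holds FPKM made by the authors from those counts. The gene length and bounds come from the count table. The annotation release and the strand setting of the counting are not given in the sources used here.

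Genes were filtered with filterByExpr (minimum count 10), scaled by TMM and tested with the quasi-likelihood test of edgeR 4.0.16 (R 4.3.3), with Benjamini-Hochberg adjustment over all genes tested. Each pairwise comparison used its 8 samples and the interaction all 16. An adjusted p below 0.05 was the threshold, and a DEG also had a change of at least 2-fold (1 on the log2 scale for the interaction). CPM for display used TMM factors over all 16 samples. FPKM served for comparisons between genes, for the sums, shares and ratios of members, which were also compared between groups, and for limma. DESeq2 1.42.0, limma 3.58.1 on log2(FPKM + 1) or log2(FPKM + 0.1), other scalings and filters, a replicate block and leaving out each replicate were the alternatives. The edgeR, DESeq2 and limma tests were tested on simulated counts for PGE2 in stimulated cells and for the interaction. Sequences and exon overlaps were read with Python 3.11.15.

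The members and gene lists were chosen with earlier results of these data known. Named are all members, the 2 genes most correlated with each (mean of at least 1 CPM), and at most the 2 largest rises and falls past the threshold in each list. A gene that the last of these rules names is not reported here. Deviations from the group means correlated between same-numbered samples at 0.409 to 0.599 (PGE2 in stimulated cells), 0.234 to 0.621 (PGE2 in unstimulated cells) and 0.206 to 0.488 (beads without PGE2), above 0.1 in every pair, so the replicate numbers of the labels were taken to pair these samples. The highest correlation with a sample of another number was 0.35 to 0.438, 0.101 to 0.177 and 0.0517 to 0.222 in these comparisons. It was below the same-number value in every pair, but narrowly for replicate 2 under PGE2 in stimulated cells (0.384 against 0.409). The 0.1 threshold alone thus does not set same-numbered samples apart. No samples of a group agreed within counting noise (chi-square per degree of freedom 8.46 to 56.8). Intervals and p-values do not separate technical from biological spread.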

Additional observations from a re-analysis of the deposited data

Results flagged for a closer look

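*Jund* in stimulated control replicate 4 had 212 CPM (211.71), far from the other 3 replicates of that group, of which the nearest had 278 CPM. It was the only sample to stand apart in this way among the 40 combinations of member and group that were checked. Chance gives about 1 in 20 for each combination, so 1 among 40 is not more than chance gives. The same sample was also the lowest of its group for *Fosl1*, *Jun*, *Junb*, *Batf* and *Maff*, but not for *Fos*, *Fosb*, *Fosl2* and *Batf3*. Without that sample the PGE2 difference of *Jund* in stimulated cells was −0.63 on the log2 scale (edgeR adjusted p = 0.00446).

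The PGE2 effect on *Batf* differed between stimulated and unstimulated cells by −0.67 on the log2 scale (edgeR interaction test, n = 4 per group, adjusted p = 0.0415), a call that was lost in 12 of 16 fits with 1 replicate left out and in all 3 limma settings. PGE2-treated samples were below their same-numbered control in 4 of 4 pairs in both states.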

How the results depend on the processing

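Of 966 single-member values under an alternative, 891 kept their direction and their side of the threshold, 34 lost a call, 36 gained one and 5 reversed, all 5 near 0. These were *Jund* under PGE2 in unstimulated cells (without unstimulated control replicate 3), *Batf* with beads and PGE2 (without stimulated PGE2-treated replicate 4) and the interaction of *Jun* (without unstimulated control replicate 1, unstimulated PGE2-treated replicate 4 or stimulated PGE2-treated replicate 4). With 1 replicate left out their log2 values ran from −0.0537 to 0.00515 for *Jund*, from −0.121 to 0.0303 for *Batf* and from −0.153 to 0.135 for *Jun*. Members called for beads without PGE2 were 10 and for beads with PGE2 between 8 and 9 under every alternative run.

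For PGE2 in stimulated cells, 4 members were called, and 2 in limma on log2(FPKM + 1) with no filter or, at the lowest, with 1 replicate left out (2 to 5). For PGE2 in unstimulated cells, 2 were called, but 6 with DESeq2, 5 with no filter, 8 with the replicate block, 4 in the fit of all 16 samples, 1 in limma with no filter and 2 to 4 with 1 replicate left out. Of all genes, 4122 of 14505 were called there, 4472 of 14505 with DESeq2 and 3975 of 26421 with no filter. The block called 6938 of 14505, the fit of all 16 samples 3549 of 15096 and limma with no filter 3064 of 26421. With 1 replicate left out, 3154 to 4133 genes were called. In those cells, 2 members were DEGs, 1 in limma on log2(FPKM + 1) with or without the filter, and 2 to 4 with 1 replicate left out. DEGs among all genes ran from 448 to 556 with 1 replicate left out. For the interaction, 1 was called, 3 with DESeq2, 2 with no filter, 0 in each of the 3 limma settings, and 0 to 2 with 1 replicate left out. With no filter 147 of all 28205 genes were called for the interaction. In the limma settings 7, 7 and 6 members had an unadjusted p below 0.05, and the share of all genes at that threshold is not given here. The cause of these changes was not tested, except that the block removes the spread that same-numbered samples share.

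For beads with PGE2 the same-number correlations fell to 0.0432, so the numbers did not pair those samples. The replicate block called 9 members there, as without it. In the interaction, which includes those samples, it called 3. It changed no other call than those given in the text. All genes called with the block against without it were 5544 against 1370 (PGE2, stimulated), 6938 against 4122 (PGE2, unstimulated) and 408 against 113 (interaction), and DESeq2 called 2219 (PGE2, stimulated) and 235 (interaction). The fit of all 16 samples called 2161 (PGE2, stimulated). Limma with no filter called 679 (PGE2, stimulated), and limma called 43, 53 and 37 (interaction). All genes called as DEGs were 243 (PGE2, stimulated), 490 (PGE2, unstimulated), 3301 (beads without PGE2), 3210 (beads with PGE2) and 35 (interaction). Limma on log2(FPKM + 1) gave 62, 116, 1605, 1583 and 8, with no filter 49, 113, 1612, 1604 and 6, and on log2(FPKM + 0.1) 110, 237 and 17 for PGE2 in stimulated cells, PGE2 in unstimulated cells and the interaction. The block gave 60 and DESeq2 53 for the interaction. With 1 replicate left out, genes called ran from 630 to 1854 for PGE2 in stimulated cells and from 44 to 217 for the interaction, where DEGs ran from 18 to 72. Upper-quartile scaling moved the median of all genes for beads with PGE2 from 0.00222 to −0.125, and fold changes of members moved with it. *Fosl1* in unstimulated samples rests on 25 to 68 counts, which limits its precision.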
